A study of Homo sapiens with 18 samples.

Results

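The 10 genes described here encode enzymes of serine synthesis (PHGDH, PSAT1, PSPH), of the one-carbon exchange that uses serine (SHMT1, SHMT2, MTHFD1, MTHFD2, MTHFD1L, ALDH1L2) and of asparagine synthesis (ASNS). They were chosen by name, with earlier results of these data known, and each matched 1 of the 60683 gene rows of the count table. All 10 were among the 18159 genes that passed the filter on low counts and were tested. In glucose-deprived medium 8 of them rose and the cytosolic pair SHMT1 and MTHFD1 fell, in a comparison that called 60.6% of all tested genes. Calcitonin gene-related peptide (CGRP) lowered PSAT1 to 57.1% of the control level in high glucose and 45.6% with 2-deoxy-D-glucose. In deprived medium it stood at 88.6%, a call (adjusted p = 0.031, edgeR) that 8 of 14 alternative fits did not make.

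Cells make serine from 3-phosphoglycerate, an intermediate of glycolysis: PHGDH oxidises it, PSAT1 adds an amino group taken from glutamate, and PSPH removes the phosphate. SHMT enzymes then pass a carbon unit from serine to folate, leaving glycine, with SHMT1 in the cytosol and SHMT2 in mitochondria. MTHFD2, MTHFD1L and ALDH1L2 handle the carbon units in mitochondria, and MTHFD1 handles them in the cytosol for purine and thymidylate synthesis. ASNS makes asparagine from aspartate and glutamine. Several of these genes are known targets of ATF4, a transcription factor whose translation rises in the integrated stress response to amino acid or glucose shortage.

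The cells were Cal27, a line from a squamous carcinoma of the tongue, and RNA was sequenced after 24 hours of treatment. The 3 media, each used with CGRP and without it, were high-glucose DMEM, glucose-deprived medium, and high-glucose DMEM to which 5 mM 2-deoxy-D-glucose (2-DG), a glucose analogue that hexokinase phosphorylates and that blocks glycolysis, had been added. CGRP, a neuropeptide of sensory nerves, was added as 10 nM recombinant human peptide, and each of the 6 groups had 3 libraries described as independent biological repeats. The CGRP and control groups rest on the abbreviations TG and capTG in the sample titles, as explained in the design text, and the growth protocol mentions only CM, an abbreviation it does not explain. All libraries came from 1 cell line, and no level of protein or metabolite was measured.

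Library totals ran from 28038260 to 32661768 counts. Levels are given as CPM, the counts of a gene scaled by TMM to a common library size, and SDs are over the 3 libraries of a group. All 8 squamous epithelial marker genes were expressed, with a summed level of 3473 to 5207 CPM. The summed level of 6 fibroblast markers was 10.6 to 28.7 CPM, of 5 leukocyte markers 0.0345 to 4.68 CPM, of 5 endothelial markers 1.86 to 44.0 CPM, of 6 neuronal markers 2.14 to 22.5 CPM and of 5 Schwann cell markers 48.7 to 69.3 CPM. ELAVL4, a defining neuronal marker, was at 0 in every library. Several sums moved with the conditions. In high glucose the endothelial sum was 24.4 to 25.2 CPM without CGRP and 42.5 to 44.0 CPM with it, and the neuronal sum 8.70 to 9.45 and 16.7 to 19.1 CPM. In 2-DG medium the endothelial sum was 21.4 to 25.2 CPM without CGRP and 39.8 to 43.8 CPM with it, and the neuronal sum 10.6 to 12.2 and 18.6 to 22.5 CPM. In deprived medium without CGRP all but the Schwann cell sum were lower than in high glucose: squamous markers at 3701 to 3823 against 4837 to 4947 CPM, fibroblast markers at 10.6 to 11.6 against 25.4 to 27.0 CPM, endothelial markers at 1.86 to 2.63 CPM, neuronal markers at 2.14 to 2.79 CPM and leukocyte markers at 0.0345 to 0.0988 against 2.19 to 2.37 CPM. The part of these shifts in the results was not tested.

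Of the 18 libraries, the second deprived library with CGRP and the second 2-DG library without CGRP stood apart from their group. Their median absolute log2 difference from the 2 other replicates, over tested genes, was 0.20 and 0.14, against 0.0453 to 0.0699 for the 12 libraries of the other 4 groups. Across 17919 genes with a known exon length, the difference correlated with log2 exon length at r = -0.39 in both, a description across genes that share a library. In those 12 libraries r lay between -0.23 and 0.22. The other replicates of the 2 groups lay at 0.32 to 0.37, each set against a mean that includes the library apart. In the deprived library with CGRP, ALDH1L2 lay 0.94 and ASNS 0.49 below the other replicates on the log2(CPM + 2) scale, and PHGDH lay 0.43 above them. In the 2-DG library ALDH1L2 lay 0.46 below and PHGDH 0.24 above. What sets them apart was not tested, and the counts of called genes among the 10 are given with and without them. Leaving them out kept 2 libraries in each of their groups. They were left out for their deviation and all groups share 1 estimate of spread, so p-values of that fit can be too small. For PHGDH with CGRP in high glucose, where the compared libraries stayed the same, the standard error went from 0.093 to 0.028.

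**Figure D1:**
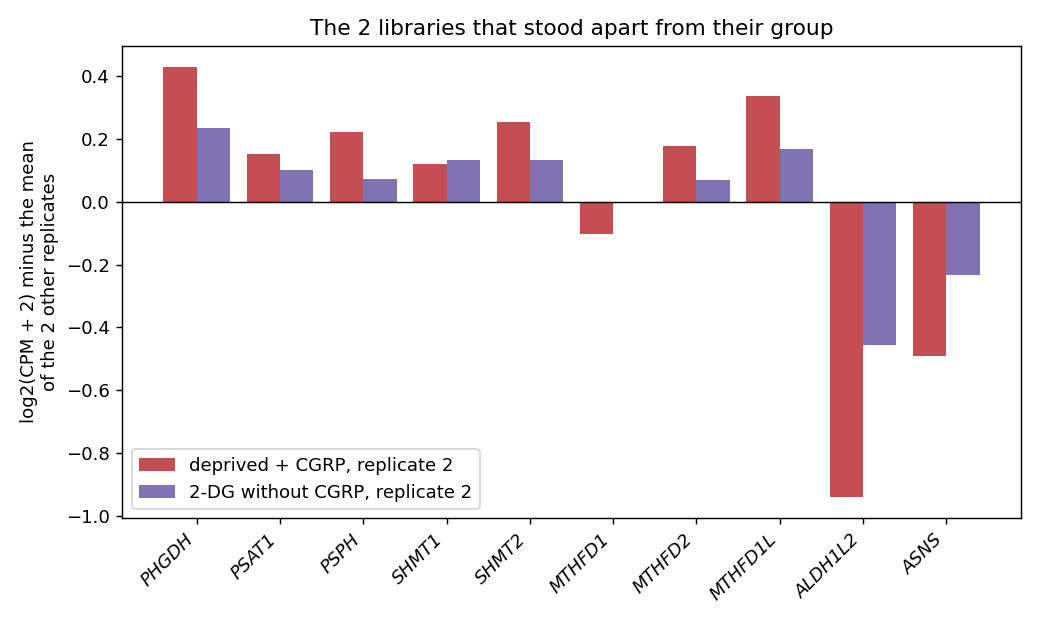
Difference of the second deprived library with CGRP (red) and the second 2-DG library without CGRP (purple) from the mean of the 2 other replicates of their group, for each of the 10 genes, on the log2(CPM + 2) scale. ALDH1L2 and ASNS lie below 0 and PHGDH, SHMT2 and MTHFD1L above 0 in both libraries, and MTHFD1 lies near or below 0.

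RefSeq promoter windows (build GRCh38.p14, 250 bases before to 50 bases after an annotated start) were given for 7 of the 10 genes and not for PSPH, SHMT2 or ALDH1L2. They were searched on both strands for TGATGNAA (TTNCATCA on the other strand), the core of the composite element that C/EBP and ATF factors bind. ASNS and MTHFD1L held a match, and 3.62% of all 35116 windows of that length did. Both genes have more than 1 window, so a count of genes and a share of windows are unlike measures. Another ASNS window and another MTHFD1L window, at other annotated starts, held no match. The bases before the start are shown for ASNS, whose element is the textbook case, and for PSAT1, the gene CGRP moved most clearly, which held no match. For MTHFD1L 30 bases around the match are shown. Sequences run 5′ to 3′ on the gene's strand, and capitals mark the match.
ASNS (chr7:97872409-97872658, minus strand): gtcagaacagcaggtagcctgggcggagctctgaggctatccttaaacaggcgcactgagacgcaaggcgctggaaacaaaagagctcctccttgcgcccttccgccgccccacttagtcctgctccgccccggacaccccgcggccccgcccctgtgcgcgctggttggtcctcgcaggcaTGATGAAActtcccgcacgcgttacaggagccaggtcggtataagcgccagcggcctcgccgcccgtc
PSAT1 (chr9:78296875-78297124, plus strand): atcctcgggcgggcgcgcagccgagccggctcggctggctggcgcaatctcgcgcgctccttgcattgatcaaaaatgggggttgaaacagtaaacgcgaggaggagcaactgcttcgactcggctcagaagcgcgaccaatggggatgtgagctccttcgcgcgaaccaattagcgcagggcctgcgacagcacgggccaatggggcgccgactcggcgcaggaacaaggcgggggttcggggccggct
MTHFD1L (chr6:150866346-150866375, plus strand): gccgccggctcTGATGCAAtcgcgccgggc

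The match in ASNS begins 68 bases before the annotated start of the window shown. MTHFD1L has alternative starts, and its match begins 129 bases before one of them, 90 before another and 24 bases after yet another. A match is a description of these letters, and its absence says only that they are not in the window.

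In high glucose without CGRP the levels per kilobase of annotated exon spread widely. PSAT1 stood highest at 154 CPM per kb, followed by SHMT2 at 63.1 and MTHFD2 at 51.4. PSPH (26.3), MTHFD1 (23.1), PHGDH (18.8), MTHFD1L (13.8) and SHMT1 (9.14 CPM per kb) lay between these and the lowest pair, ALDH1L2 at 3.93 and ASNS at 0.333. Each step in this order was larger than the SDs of the genes beside it. In deprived medium without CGRP PSAT1 (239 CPM per kb), SHMT2 (117) and MTHFD2 (109) still led, MTHFD1 was down to 13.4 and ALDH1L2 was up to 22.2. Exon length here is the union over all annotated transcripts, which lowers the per-kb level of genes with many of them. The SDs do not cover this choice of length, on which the order can depend. PHGDH has 9217 exon bases and 1771 coding bases, and PSPH 2762 and 749. The order by another length was not tested. The ASNS row may not hold all reads of that gene, as 96.1% of its coding bases are shared with another gene model. The part of this in its place at the bottom was not tested.

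**Figure D2:**
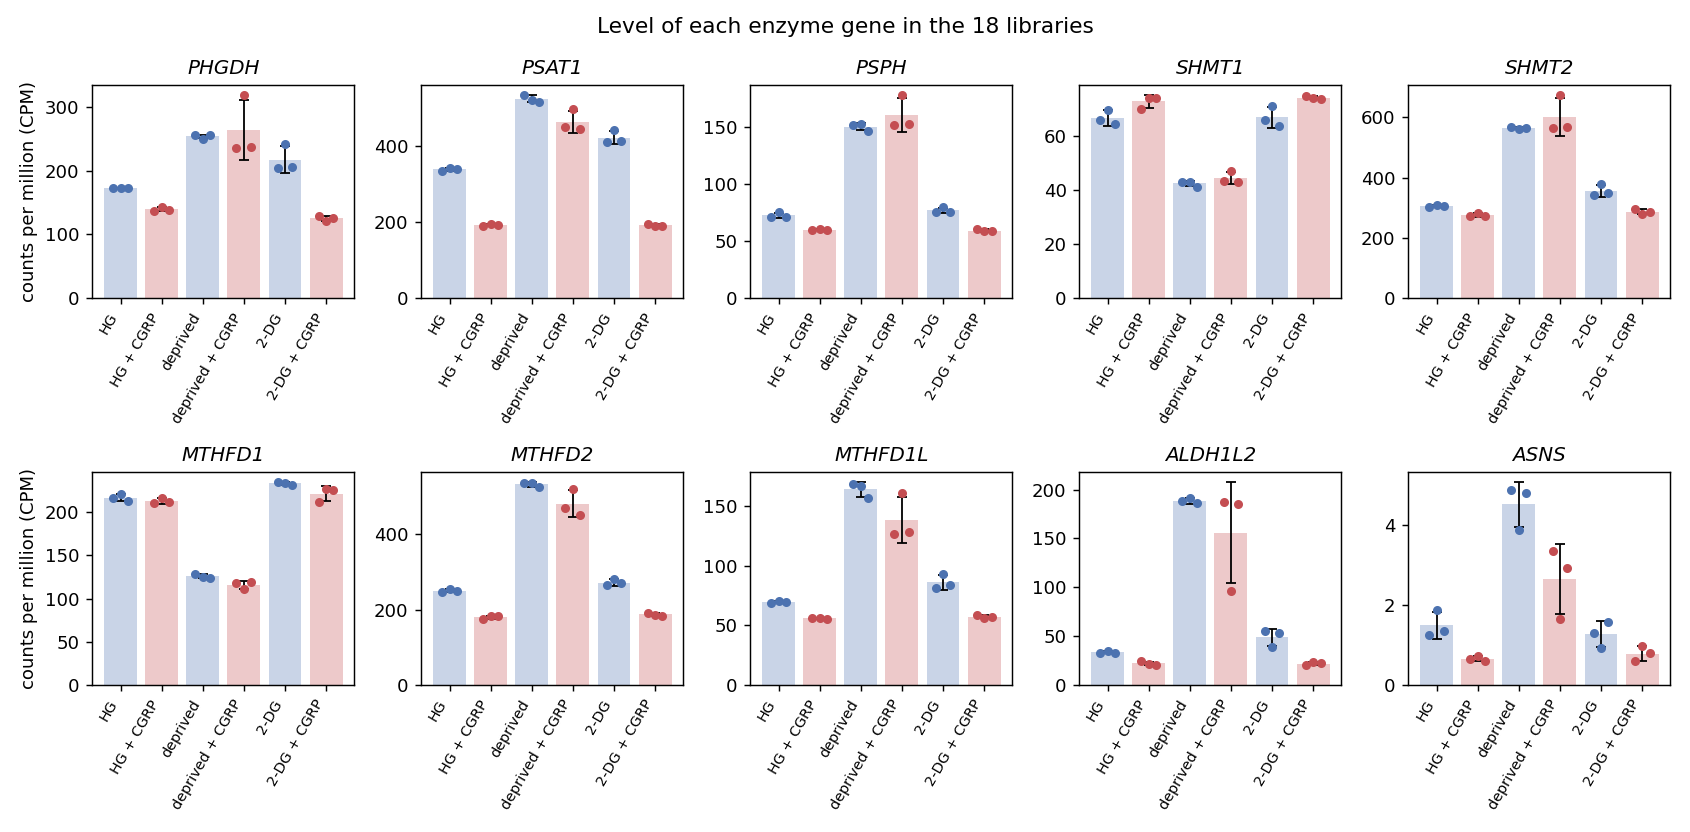
Level of each of the 10 genes in CPM, by group, with high glucose written HG. Points are the 3 libraries, bars their mean and whiskers the SD, with blue for no CGRP and red for CGRP. The 2 deprived groups have the highest means for 8 genes and the lowest for SHMT1 and MTHFD1.

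Glucose deprivation without CGRP changed all 10 genes at an adjusted p under 0.05 (edgeR quasi-likelihood test, Benjamini-Hochberg over 18159 genes). It raised 8 and lowered 2, while 60.6% of all tested genes were called, 31% as higher and 29.6% as lower. The median log2 fold change of the 10 genes was 0.97, and that of all tested genes 0.02. In bulk RNA, fewer cells expressing a gene and less of its RNA per cell cannot be told apart. All 10 calls also held without the 2 libraries that stood apart, where 72.4% of genes were called.

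ALDH1L2, which oxidises formyl-folate in mitochondria and makes NADPH, rose most. It was at 33.05, 34.8 and 32.5 CPM in the high-glucose libraries and at 188, 192 and 186 CPM in the deprived ones, a log2 fold change of 2.50 ± 0.19 (SE, adjusted p = 1.2e-08). The groups were far from overlapping. MTHFD1L, which releases formate from formyl-folate in mitochondria, rose from 69.4 ± 0.893 to 164 ± 6.33 CPM (n = 3 each), a log2 fold change of 1.24 ± 0.08. MTHFD2, the mitochondrial methylene-folate dehydrogenase, rose from 250 ± 4.01 to 533 ± 6.24 CPM (1.09 ± 0.05). SHMT2 rose from 305 ± 2.93 to 564 ± 3.62 CPM (0.89 ± 0.06). The 4 mitochondrial genes were each higher in all 3 deprived libraries than in any high-glucose library, in a comparison where the groups did not overlap for 75.8% of tested genes.

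The 3 serine synthesis genes rose too, and differences between genes were not tested. PSPH, the last step, rose from 72.7 ± 2.32 to 150 ± 2.95 CPM (log2 fold change 1.05 ± 0.06, adjusted p = 1.2e-10). PSAT1 rose from 338 ± 3.35 to 522 ± 9.12 CPM (0.63 ± 0.05). PHGDH, the first step, rose from 173 ± 0.310 to 254 ± 2.92 CPM (0.55 ± 0.09, adjusted p = 8.2e-05). No pair of these groups overlapped.

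The cytosolic enzymes went the other way. SHMT1 fell from 65.8, 69.6 and 64.2 CPM in high glucose to 43.0, 43.0 and 41.1 CPM in deprived medium, 63.7% of the starting level (log2 fold change -0.65 ± 0.05, adjusted p = 2.6e-08). MTHFD1, a trifunctional enzyme, fell from 216, 222 and 213 CPM to 129, 125 and 124 CPM, 58.0% of the starting level (-0.78 ± 0.05, adjusted p = 2.5e-10). For both genes every deprived library was below every high-glucose library. The opposite directions held under each alternative scaling of the libraries.

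ASNS rose from 1.24, 1.87 and 1.35 CPM to 4.87, 3.86 and 4.79 CPM (log2 fold change 1.60 ± 0.23, adjusted p = 1.7e-05). These levels rest on 37 to 59 counts in a high-glucose library and 112 to 148 in a deprived one. The ASNS gene (chromosome 7, 97852118 to 97872542, minus strand, GRCh38) overlaps a second gene model of GENCODE 29 on the same strand, AC079781.5, which shares 44.6% of its exon bases and 96.1% of its coding bases. That model itself held 0 to 8 counts, and the part of the overlap in the low ASNS count was not tested. With the counts of both models summed, the deprivation change was 1.44 ± 0.23 (adjusted p = 3.9e-05).

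With CGRP present in both media, deprivation again changed all 10 genes in the same directions, against 60.4% of tested genes called. This comparison and the matching one for 2-DG were added after the values had been seen. The log2 fold change was 2.83 ± 0.20 for ALDH1L2, 1.42 ± 0.05 for MTHFD2, 1.26 ± 0.05 for PSAT1 and 0.92 ± 0.09 for PHGDH. SHMT1 changed by -0.71 ± 0.05 and MTHFD1 by -0.88 ± 0.05. All 10 were called without the 2 libraries that stood apart, beside 69.9% of tested genes.

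**Figure D3:**
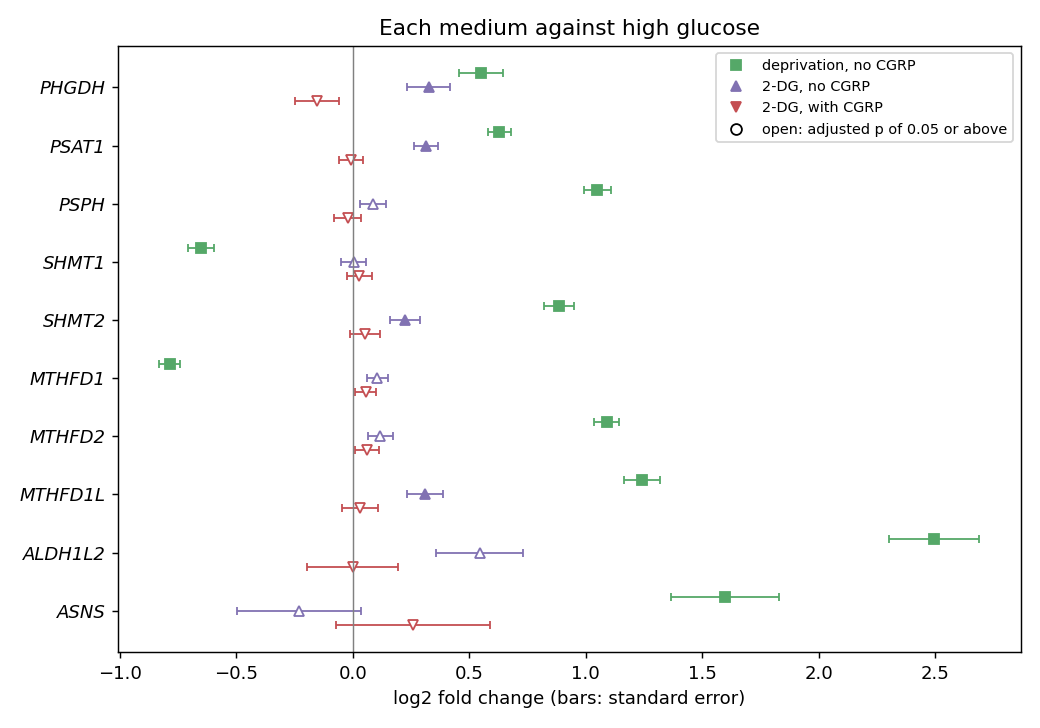
Log2 fold change against high glucose, with its standard error, for deprivation without CGRP (green squares), 2-DG without CGRP (purple triangles) and 2-DG with CGRP in both media (red triangles). Filled symbols have an adjusted p under 0.05: all 10 for deprivation, 4 for 2-DG without CGRP and 0 for 2-DG with CGRP.

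In high glucose, 2-DG without CGRP raised 4 of the 10 genes, against 13.8% of tested genes called and 7.99% called as higher. PSAT1 rose from 334, 341 and 338 to 409, 440 and 411 CPM (log2 fold change 0.31 ± 0.05, adjusted p = 0.00049). PHGDH rose by 0.33 ± 0.09 (adjusted p = 0.028), MTHFD1L by 0.31 ± 0.08 (0.014) and SHMT2 by 0.22 ± 0.06 (0.029). ALDH1L2 stood at 54.8, 38.7 and 52.7 CPM against 33.05, 34.8 and 32.5 CPM, above every high-glucose library, with a log2 fold change of 0.54 ± 0.19 that missed the threshold (adjusted p = 0.068). SHMT1 was at 66.8 ± 3.86 CPM beside 66.5 ± 2.79 CPM (adjusted p = 0.97), and MTHFD1, MTHFD2, PSPH and ASNS did not pass either.

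Only PSAT1 kept its call whichever of the 6 libraries was left out. The call of PHGDH was lost without the second 2-DG library or any high-glucose library (adjusted p = 0.078 to 0.14), that of SHMT2 without the second or the third 2-DG library or any high-glucose one (0.05 to 0.13), and that of MTHFD1L without the second 2-DG library or the first or the third high-glucose one (0.05 to 0.073). Without both libraries that stood apart 7 genes were called, all higher, beside 32.5% of tested genes, and ALDH1L2 was among them at 0.68 ± 0.05 (adjusted p = 3.5e-13).

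With CGRP in both media, 2-DG changed none of the 10 genes, while 2.39% of tested genes were called. By edgeR none had an unadjusted p under 0.05 either, and DESeq2 called none. PSAT1 was at 193 ± 2.72 CPM in high glucose and 192 ± 3.12 CPM with 2-DG, a log2 fold change of -0.01 ± 0.05, and ALDH1L2 was at 21.9 ± 2.01 and 21.9 ± 1.77 CPM. The log2 fold changes of all 10 genes lay between -0.15 (PHGDH) and 0.26 (ASNS), and that of PHGDH passed without the libraries that stood apart (-0.16 ± 0.03, adjusted p = 4.5e-05, beside 19.5% of tested genes called).

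Set against deprivation, 2-DG without CGRP left 8 genes lower and SHMT1 and MTHFD1 higher, all 10 called, with 57.5% of tested genes called. The log2 difference was -1.95 ± 0.19 for ALDH1L2, -1.83 ± 0.24 for ASNS, -0.97 ± 0.05 for MTHFD2 and -0.96 ± 0.06 for PSPH. It was 0.66 ± 0.05 for SHMT1 and 0.89 ± 0.05 for MTHFD1. PHGDH differed least, at -0.23 ± 0.09 (adjusted p = 0.048), and was not called under median-of-ratios scaling (0.063), total-count scaling (0.14), DESeq2 (0.075), no filter (0.10) or a stricter one (0.084). Its call was also lost without any 1 of the 3 deprived libraries or the first or the third 2-DG library (0.13 to 0.16). All 10 were called without the libraries that stood apart, beside 66.8% of tested genes. This comparison shares its libraries with those against high glucose.

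CGRP in high glucose lowered 5 of the 10 genes, against 4.33% of tested genes called and 2.29% called as lower. The median log2 fold change of the 10 was -0.31, beside -0.01 for all tested genes, and in 9 of the 10 the 2 groups did not overlap, against 34% of tested genes. The 5 were PSAT1, PSPH, MTHFD2, MTHFD1L and ASNS. PSAT1 (chromosome 9, 78297143 to 78330093, plus strand, GRCh38) was at 334, 341 and 338 CPM without CGRP and at 190, 195 and 193 CPM with it. Its log2 fold change was -0.81 ± 0.05 (adjusted p = 1.6e-07), the 4th smallest p of all 18159 genes. By size of the fall it ranked 211th.

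MTHFD2 fell from 248, 255 and 249 CPM to 175, 182 and 183 CPM (log2 fold change -0.48 ± 0.05, adjusted p = 4.2e-05). PSPH fell from 72.7 ± 2.32 to 60.1 ± 0.749 CPM (-0.27 ± 0.06, adjusted p = 0.010), and MTHFD1L from 69.4 ± 0.893 to 55.9 ± 0.538 CPM (-0.31 ± 0.08, adjusted p = 0.030). PHGDH stood at 173, 173 and 173 CPM without CGRP and at 137, 143 and 139 CPM with it. Its groups did not overlap, and its adjusted p was 0.077 at a log2 fold change of -0.31 ± 0.09. ALDH1L2 (-0.61 ± 0.19, adjusted p = 0.097) and SHMT2 (-0.14 ± 0.06, 0.30) missed the threshold too. SHMT1 was the 1 gene whose CGRP libraries all lay above the controls (70.0, 74.0 and 74.0 against 65.8, 69.6 and 64.2 CPM), at 0.13 ± 0.05 (adjusted p = 0.26), and MTHFD1 was at 213 ± 3.16 against 217 ± 4.29 CPM.

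ASNS went from 1.24, 1.87 and 1.35 CPM to 0.643, 0.720 and 0.605 CPM (log2 fold change -1.18 ± 0.30, adjusted p = 0.032), on 19 to 23 counts in a CGRP library. With the overlapping model summed its change was -0.96 ± 0.28 and was not called (adjusted p = 0.065). Its call was lost without any 1 CGRP library or the second or the third control (0.064 to 0.18), that of MTHFD1L without any 1 of the 6 libraries (0.084 to 0.12), and that of PSPH without the third CGRP library (0.053) or the second control (0.069). A fit on these 6 libraries alone, or on all but the 2 that stood apart, called 9 genes, 8 lower and SHMT1 higher. The first of these fits called 21.4% of the genes it tested and the second 19.1%, the latter with PHGDH at -0.31 ± 0.03 (adjusted p = 4.1e-11) and SHMT1 at 0.13 ± 0.04 (0.0061).

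**Figure D4:**
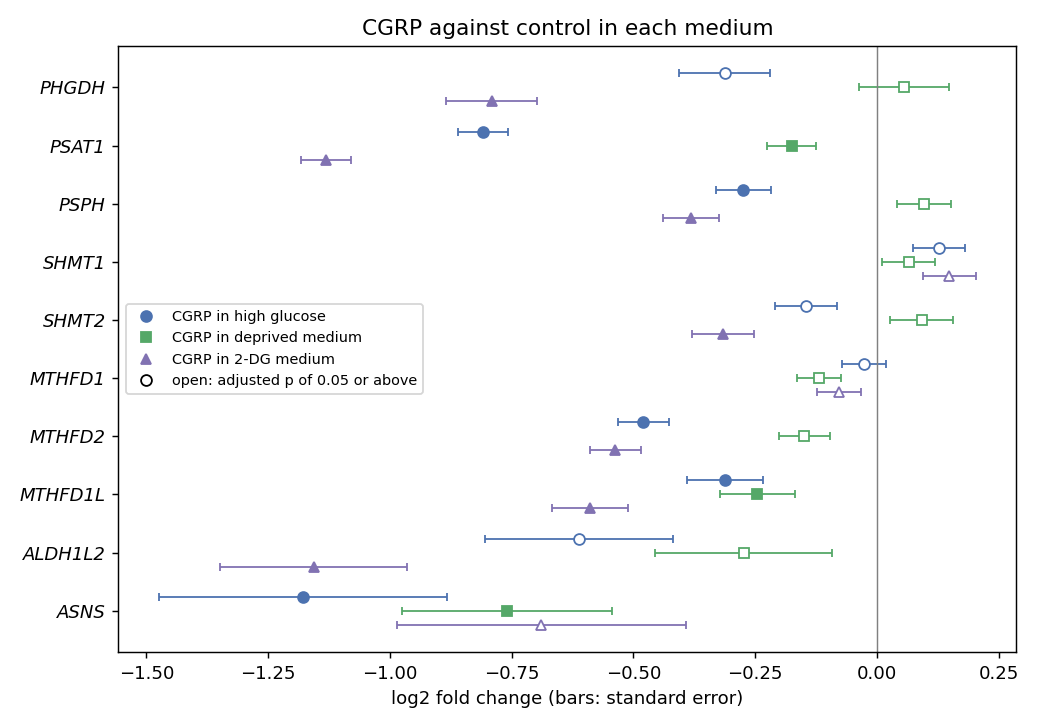
Log2 fold change of CGRP against control, with its standard error, in high glucose (blue circles), deprived medium (green squares) and 2-DG medium (purple triangles) for each gene. Filled symbols have an adjusted p under 0.05. PSAT1 is lower in each medium and lowest with 2-DG, SHMT1 lies just above 0 in each, and MTHFD1 lies near 0.

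In 2-DG medium CGRP lowered 7 of the 10 genes, against 12.2% of tested genes called and 6.89% called as lower. PSAT1 fell from 409, 440 and 411 CPM to 195, 190 and 190 CPM, 45.6% of the control (log2 fold change -1.13 ± 0.05, adjusted p = 4.3e-09). It had the smallest p of all 18159 genes in this comparison and ranked 163rd by size of the fall. ALDH1L2 fell from 54.8, 38.7 and 52.7 to 19.8, 23.1 and 22.6 CPM (-1.16 ± 0.19, adjusted p = 0.00081), 44.9% of the control. PHGDH fell from 203, 241 and 206 to 129, 121 and 125 CPM (-0.79 ± 0.09, adjusted p = 4e-05), so that the first step of the pathway moved with the second.

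MTHFD1L fell by 0.59 on the log2 scale (SE 0.08, adjusted p = 0.00010), MTHFD2 by 0.54 (SE 0.05, adjusted p = 6.1e-06), PSPH by 0.38 (SE 0.06, adjusted p = 0.00031) and SHMT2 by 0.32 (SE 0.06, adjusted p = 0.0035). In each of these the highest CGRP library was below the lowest control, and the groups did not overlap for 29.8% of tested genes. ASNS stood at 1.29, 0.924 and 1.58 CPM without CGRP and at 0.591, 0.965 and 0.790 CPM with it, overlapping groups (-0.69 ± 0.30, adjusted p = 0.16). SHMT1 stood at 65.7, 71.0 and 63.5 CPM without CGRP and at 74.5, 73.9 and 73.7 CPM with it (0.15 ± 0.05, adjusted p = 0.087). MTHFD1 was at 233 ± 1.67 and 221 ± 8.59 CPM (-0.08 ± 0.04, 0.32).

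The 7 calls held under each alternative that was run. SHMT1 passed as higher under median-of-ratios scaling (adjusted p = 0.048), total-count scaling (0.0082), the stricter filter (0.038), DESeq2 (0.019) and without the second 2-DG control (0.032). Without both libraries that stood apart 9 genes were called, beside 28.4% of tested genes, with ASNS now lower at -0.86 ± 0.24 (0.0064) and SHMT1 higher at 0.20 ± 0.04 (0.00017).

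In deprived medium CGRP lowered 3 of the 10 genes, against 13% of tested genes called and 6.58% called as lower, so the share of members was nearer to the background than in the other media. PSAT1 went from 532, 519 and 515 to 448, 496 and 443 CPM (log2 fold change -0.18 ± 0.05, adjusted p = 0.031), MTHFD1L from 168, 167 and 157 to 126, 161 and 128 CPM (-0.25 ± 0.08, adjusted p = 0.046) and ASNS from 4.87, 3.86 and 4.79 to 3.36, 1.66 and 2.93 CPM (-0.76 ± 0.22, adjusted p = 0.031). The groups of MTHFD1L overlapped. PHGDH was at 255, 250 and 255 CPM without CGRP and at 235, 318 and 238 CPM with it, so the library that stood apart lay above the controls and the 2 others below them (0.06 ± 0.09, adjusted p = 0.74). ALDH1L2 was at 188, 192 and 186 against 187, 96.1 and 185 CPM, where the same library alone was low (-0.27 ± 0.18, adjusted p = 0.35). PSPH and SHMT2 had log2 fold changes of 0.10 ± 0.06 and 0.09 ± 0.06, SHMT1 of 0.07 ± 0.05, and MTHFD1 and MTHFD2 of -0.12 ± 0.05 and -0.15 ± 0.05, none of them called.

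The 3 calls depended on the fit. A fit on these 6 libraries alone called 0 of the 10, and a fit with no filter called ASNS only. The stricter filter left ASNS untested and called 0 of the others. PSAT1 lost its call without any 1 library except the second CGRP library (adjusted p = 0.098 to 0.15), and so did MTHFD1L (0.087 to 0.17). ASNS lost its call without the second CGRP library (0.058) or the first (0.11) or the third control (0.10). Without both libraries that stood apart 5 genes were called as lower, beside 28.7% of tested genes. They were PSAT1 (-0.22 ± 0.03, adjusted p = 7e-08), MTHFD1L (-0.36 ± 0.03), MTHFD2 (-0.20 ± 0.03), ASNS (-0.52 ± 0.15) and PHGDH (-0.09 ± 0.03, adjusted p = 0.016), whose direction turned.

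The effect of CGRP differed between media for 5 of the 10 genes, by tests of the difference itself. Between 2-DG and deprived medium these were PSAT1 (-0.96 ± 0.07, adjusted p = 2.5e-06), PHGDH (-0.85 ± 0.13, 0.0017), PSPH (-0.48 ± 0.08, 0.0027), SHMT2 (-0.41 ± 0.09, 0.017) and MTHFD2 (-0.39 ± 0.07, 0.0066), each log2 change being lower with 2-DG. Of all tested genes 3.87% differed, 2.18% in that direction. PSAT1 had the 3rd smallest p of all genes there. Between deprived medium and high glucose PSAT1 (0.63 ± 0.07, adjusted p = 0.00025), PSPH (0.37 ± 0.08, 0.027) and MTHFD2 (0.33 ± 0.07, 0.033) differed, beside 1.55% of all tested genes. Between 2-DG medium and high glucose 0 of 10 differed by edgeR, beside 0.391% of all tested genes, with 3 of the 10 and 8.53% of tested genes at an unadjusted p under 0.05, and 2 of the 10 and 1.61% of tested genes called by DESeq2. PSAT1 was closest there, at -0.32 ± 0.07 (adjusted p = 0.066).

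PSAT1 differed in the deprived comparisons whichever library was left out. PSPH and MTHFD2 lost the difference between deprived medium and high glucose without any 1 high-glucose library or deprived control (adjusted p = 0.055 to 0.087 and 0.075 to 0.11), and SHMT2 lost the difference between 2-DG and deprived medium without the second 2-DG library with CGRP (0.057). In a fit on the compared groups alone PSPH (0.076) and MTHFD2 (0.092) lost the former and SHMT2 (0.11) and MTHFD2 (0.071) the latter. Without both libraries that stood apart the differences passed for 8 genes between 2-DG and deprived medium (17.4% of tested genes), 6 between deprived medium and high glucose (13.5%) and 5 between 2-DG and high glucose (5.91%). In that fit ALDH1L2 differed in each of the 3, by -1.28 ± 0.07, 0.59 ± 0.07 and -0.69 ± 0.08, and PSAT1 by -0.87 ± 0.04, 0.58 ± 0.04 and -0.29 ± 0.04.

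The balance of mitochondrial to cytosolic enzyme genes was read within each library as a ratio of CPM per kb, in which the scaling of libraries cancels. No test was run on it. SHMT2 over SHMT1 was 6.66 to 7.16 in high glucose and 19.6 to 20.7 in deprived medium without CGRP, so the groups lay far apart. With CGRP it was 5.55 to 5.84 in high glucose and 19.6 to 21.6 in deprived medium. In 2-DG medium it was 7.84 to 8.23 without CGRP and 5.67 to 5.96 with it, the second range overlapping that of high glucose with CGRP.

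MTHFD1L over MTHFD1 was 0.593 to 0.605 in high glucose, 2.36 to 2.49 in deprived medium and 0.643 to 0.743 in 2-DG medium, all without CGRP. With CGRP the ranges were 0.485 to 0.496, 2.00 to 2.72 and 0.462 to 0.516. MTHFD1L thus stood below MTHFD1 per kb in every library with glucose and above it in every deprived library. CGRP libraries lay below the controls in high glucose and 2-DG medium for both ratios, and in deprived medium the groups overlapped for both. For MTHFD1L over MTHFD1 that overlap came from the CGRP library that stood apart, at 2.72, while the 2 other CGRP libraries, both at 2.00, lay below every control.

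**Figure D5:**
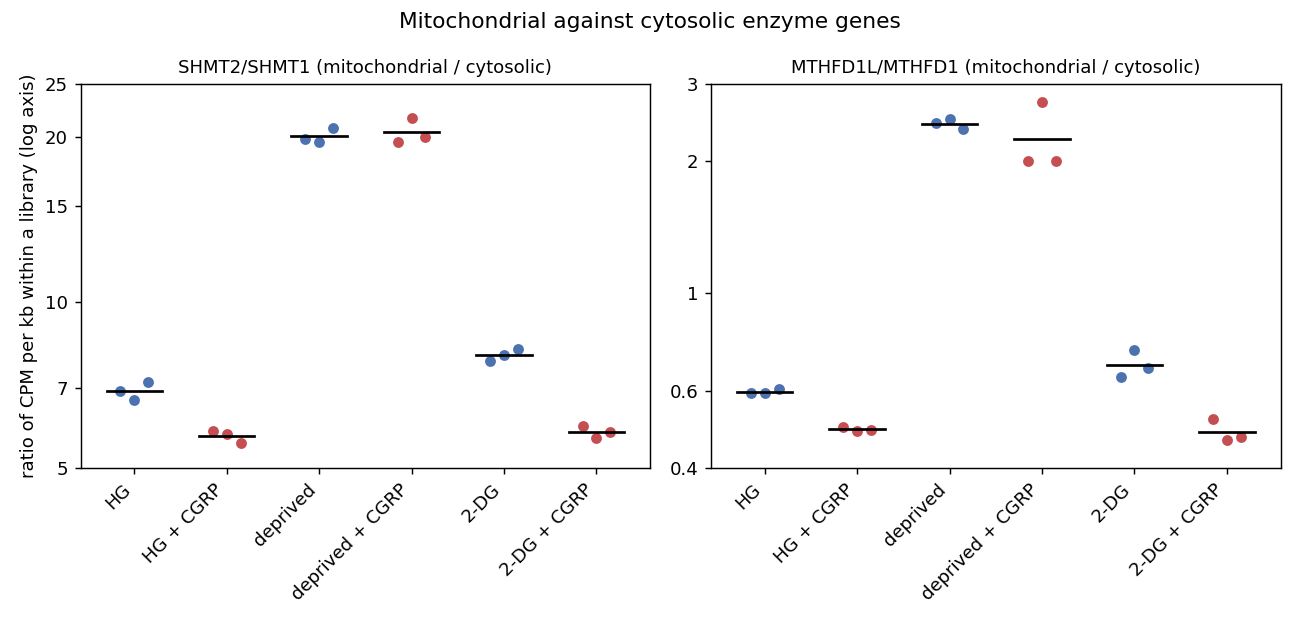
Ratio of CPM per kb of the mitochondrial over the cytosolic enzyme gene within each library, on log axes, for SHMT2 over SHMT1 and MTHFD1L over MTHFD1, with high glucose written HG. Points are libraries and lines group means, blue without CGRP and red with CGRP. Both ratios are highest in the deprived groups and lower with CGRP in high glucose and 2-DG medium.

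Around these enzymes, 77 genes of linked reactions, transport and control were listed and 72 of them tested. CGRP raised 1 and lowered 14 of the 72 in high glucose, raised 4 and lowered 16 in deprived medium, and raised 3 and lowered 20 in 2-DG medium. Deprivation without CGRP raised 35 and lowered 18, and 2-DG raised 17 and lowered 8. The shares called among all tested genes were 4.33%, 13%, 12.2%, 60.6% and 13.8% in that order. Without the 2 libraries that stood apart 73 were tested, and CGRP raised 5 and lowered 31 in high glucose, 6 and 34 in deprived and 11 and 35 in 2-DG medium, while deprivation raised 40 and lowered 22 and 2-DG raised 29 and lowered 14, beside 19.1%, 28.7%, 28.4%, 72.4% and 32.5% of all tested genes.

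Of 8 tested transporters of serine, asparagine and related amino acids, deprivation raised 6 and lowered 2, beside 31% and 29.6% of tested genes. SLC38A5 rose by 2.61 ± 0.12, SLC1A4 by 2.14 ± 0.07 and SLC1A5, the main glutamine importer, by 1.03 ± 0.04 on the log2 scale. CGRP lowered SLC1A5 by 0.40 (SE 0.04, adjusted p = 3.6e-05) and SLC1A4 by 0.31 (SE 0.07, 0.024) in high glucose. It raised 1 and lowered 1 of the 8 transporters in deprived medium, and lowered 4 in 2-DG medium. Of all tested genes 2.29%, 6.58% and 6.89% were called as lower in high glucose, deprived and 2-DG medium. Without the libraries that stood apart CGRP lowered 3, 4 and 5 of the 8 in these media and raised 0, 1 and 1. That fit called 19.1%, 28.7% and 28.4% of tested genes in either direction. Of the 10 tested genes of glutamate, aspartate, alanine and proline synthesis, deprivation raised 4 and lowered 2, a share near the 60.6% of all tested genes, with PYCR1, which makes proline, at 1.94 ± 0.07 and GLUL, glutamine synthetase, at -2.06 ± 0.05. Of these 10 genes CGRP raised 1 and lowered 3 in high glucose, 1 and 5 in deprived medium, and 1 and 3 in 2-DG medium. Of all tested genes 4.33%, 13% and 12.2% were called there. CGRP lowered PYCR1 (-0.42 ± 0.07, -0.90 ± 0.07) and GPT2, mitochondrial alanine transaminase (-0.62 ± 0.05, -0.79 ± 0.05), and raised GLUL (0.37 ± 0.05, 0.71 ± 0.05), in high glucose and 2-DG medium in that order.

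Of the 8 purine synthesis genes, CGRP lowered 3, 5 and 3 in high glucose, deprived and 2-DG medium, beside 2.29%, 6.58% and 6.89% of tested genes. Without the libraries that stood apart it lowered 7, 8 and 6, in a fit that called 19.1%, 28.7% and 28.4% of tested genes in either direction. GART, an enzyme of this pathway that uses formyl-folate, fell by 0.28, 0.32 and 0.31 in these media (SE 0.05 each). Of the 13 folate genes CGRP changed 0 in high glucose, and raised 1 and lowered 1 in deprived as in 2-DG medium. Of all tested genes 4.33%, 13% and 12.2% were called there. The lowered gene was the folate importer SLC19A1 in both deprived and 2-DG medium (-0.58 ± 0.08 and -0.72 ± 0.07). Under deprivation 3 of the 13 rose and 6 fell, among them TYMS (-1.77 ± 0.10), which works in thymidylate synthesis, as MTHFD1 and SHMT1 do. Of the 8 genes of the methionine cycle and transsulfuration 4 rose and 2 fell under deprivation, with CBS, which joins serine to homocysteine, at 1.52 ± 0.13. The shares of called genes in these 2 lists, 9 of 13 and 6 of 8, are near the 60.6% of all tested genes.

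The 3 tested glycine cleavage genes did not pass by edgeR with CGRP in any medium or with deprivation in the absence of CGRP, where 1 of them had an unadjusted p under 0.05. With CGRP in both media deprivation raised GCSH from 0.956 ± 0.185 to 1.65 ± 0.951 CPM (log2 fold change 0.77 ± 0.29, adjusted p = 0.034), a call that was lost without the libraries that stood apart. In that fit 1 of the 3 fell with CGRP in deprived medium, 1 rose and 1 fell with CGRP in 2-DG medium, and 1 rose and 1 fell with deprivation. Of the 7 tested genes of other serine use, 4 rose and 2 fell under deprivation, beside 31% and 29.6% of tested genes. Of these 7 CGRP raised 1 and lowered 0 in deprived medium, and raised 1 and lowered 1 in 2-DG medium. Of all tested genes 13% and 12.2% were called there. The raised gene was SPTLC3, a subunit of serine palmitoyltransferase, at 0.70 ± 0.12 in deprived and 0.50 ± 0.10 in 2-DG medium. ASRGL1, an asparaginase and the 1 gene of asparagine breakdown tested, fell with deprivation (-1.44 ± 0.19).

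Of 14 regulators, deprivation raised 10, beside 31% of tested genes called as higher. The smallest p-values were those of PPP1R15A, a phosphatase subunit that reverses the stress block on translation (2.67 ± 0.05, adjusted p = 7.4e-16), and ATF3, a stress-induced transcription factor (2.78 ± 0.06, 1.3e-15). ATF4 was at 296 ± 5.81 CPM in high glucose and 561 ± 6.44 CPM in deprived medium (log2 fold change 0.92 ± 0.10, adjusted p = 4.2e-07). DDIT3, which encodes the stress factor CHOP, rose by 4.63 ± 0.23, and TRIB3, an ATF4-induced pseudokinase, by 3.72 ± 0.09. With 2-DG alone ATF4 (0.14 ± 0.10, adjusted p = 0.40) and DDIT3 (0.40 ± 0.22, 0.27) did not pass, and TRIB3 rose by 0.65 ± 0.08.

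CGRP lowered 6 of the 14 in high glucose, 4 in deprived and 6 in 2-DG medium, beside 2.29%, 6.58% and 6.89% of tested genes called as lower. Without the libraries that stood apart it lowered 9, 9 and 10. That fit called 19.1%, 28.7% and 28.4% of tested genes in either direction. ATF4 fell by 0.37 (SE 0.10, adjusted p = 0.039) in high glucose and by 0.44 (SE 0.10, 0.0060) in 2-DG medium, and in deprived medium its change was 0.01 ± 0.10 (0.95). TRIB3 fell by 0.60 (SE 0.08) and 1.05 (SE 0.08) in these and was at -0.02 ± 0.08 (adjusted p = 0.91) in deprived medium. The deprived CGRP libraries spread far more than their controls. ATF4 was at 566 ± 98.9 against 561 ± 6.44 CPM, TRIB3 at 491 ± 57.2 against 497 ± 2.51 CPM and DDIT3 at 344 ± 126 against 256 ± 8.91 CPM. A change in either direction could be hidden in that spread, and the part of the library that stood apart in it was not tested. ATF3 (-0.57 ± 0.05, adjusted p = 5.7e-06) and PPP1R15A (-0.29 ± 0.05, 0.00079) did fall in deprived medium. DDIT3 did not pass in any medium, at -0.46 ± 0.23 in high glucose, -0.45 ± 0.22 in 2-DG medium and 0.42 ± 0.19 in deprived medium. MYC, a transcription factor that also binds serine pathway genes, fell in each medium, by 0.90 (SE 0.05) in high glucose, 1.05 (SE 0.05) with 2-DG and 0.54 (SE 0.05) in deprived medium. The difference between 2-DG and deprived medium passed for TRIB3 (-1.03 ± 0.11, adjusted p = 8.2e-05) and MYC (-0.51 ± 0.07, 0.00091) and not for ATF4 (-0.45 ± 0.14, 0.079). These are transcript levels, whereas ATF4 is set largely by translation.

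Over the 6 group means of log2 CPM, the members differed in which other genes were most like them among 12483 expressed genes. These are descriptions over 6 points that share their libraries. MTHFD1L and ALDH1L2 were close to each other (r = 0.998) and both close to ODC1, which makes putrescine (r = 0.999 for each). MTHFD2 was most like PRELID3A (r = 1.000) and AARS1, alanyl-tRNA synthetase (r = 0.999). PSPH was most like HKDC1, a hexokinase family member (r = 0.999), and SHMT2 most like SQSTM1, an autophagy receptor (r = 0.999). MTHFD1 was most like RANBP1, a partner of the nuclear transport GTPase RAN (r = 1.000), and SHMT1 most like SRPX2 (r = 1.000).

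The gene most like PSAT1 was RRP8, a nucleolar protein (r = 0.987), and that most like PHGDH was COA4 (r = 0.995). PSAT1 and PHGDH were at r = 0.972 with each other, and 15 other genes were closer to PSAT1 than PHGDH was, whereas 927 were closer than PSPH (r = 0.845). The most similar genes to ASNS were SMNDC1, RASA3 and USP45 (r = 0.996, 0.996 and 0.995), at a level where counting error is large.

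Overlapping gene models and pseudogenes bear on these rows. The counting program and its use of strand are not known here, and 5 members share exon bases with a model on the opposite strand, among them MTHFD2 with SLC4A5 and MTHFD1 with ZBTB25. SLC4A5 held 12 to 41 counts in a library and ZBTB25 731 to 1125, against 5508 to 16322 for MTHFD2 and 2867 to 7651 for MTHFD1. SHMT1 overlaps SMCR8, with 923 to 2147 counts beside its own 1208 to 2366, and ALDH1L2 overlaps C12orf45, with 436 to 685 beside 571 to 5718. The 18 rows of processed or other pseudogenes of the members held at most 5 counts in a library, at most 0.886% of the member's own count.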

How the data were processed

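RNA of 18 Cal27 libraries, 3 for each of 6 groups, was sequenced on standard Illumina libraries, per the labels' protocols. The authors deposited 1 table of raw counts per gene. HISAT2 2.0.4 and the builds hg19 and GRCh38 are named in the submitters' processing notes, with no role stated, and the counting program, annotation and strand setting were not found in the labels or the table. Of 60683 row IDs, 58496 were in GENCODE 29. Counts were kept as deposited. Genes were filtered with filterByExpr (minimum count 10), normalised with TMM factors, and fitted with edgeR 4.0.16 under R 4.3.3, all 6 groups in 1 robust quasi-likelihood model with 12 residual degrees of freedom and a common biological coefficient of variation of 9.437%. The Benjamini-Hochberg adjustment ran over all 18159 genes, and 0.05 was the threshold. The standard error is the log2 fold change over the square root of F. DESeq2 1.42.0, other scalings and filters, a fit on the compared groups alone, a replicate block and leaving out libraries were alternatives. Members and gene lists were chosen with earlier results of these data known, and genes named from a list are among the up to 3 of it that passed with the smallest adjusted p in a comparison, with ATF4, DDIT3 and TRIB3 always named. Some items are not reported here. With 2 comparisons added later, 11 comparisons were made. P-values measure the spread between libraries, which the design text calls independent repeats.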

Additional observations from a re-analysis of the deposited data

Results flagged for a closer look

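The response to CGRP differed between media, by a test of the difference, in 8 results on 5 genes. Between deprived medium and high glucose the log2 change with CGRP was higher in deprived medium by 0.63 ± 0.07 for PSAT1 (edgeR, adjusted p = 0.00025), 0.37 ± 0.08 for PSPH (0.027) and 0.33 ± 0.07 for MTHFD2 (0.033). Between 2-DG and deprived medium the difference was -0.96 ± 0.07 for PSAT1 (adjusted p = 2.5e-06), -0.85 ± 0.13 for PHGDH (0.0017), -0.48 ± 0.08 for PSPH (0.0027), -0.41 ± 0.09 for SHMT2 (0.017) and -0.39 ± 0.07 for MTHFD2 (0.0066). Of all tested genes 1.55% and 3.87% differed in these comparisons, which share the deprived libraries. PSPH and MTHFD2 lost the former difference without any 1 high-glucose library or deprived control, and SHMT2 (adjusted p = 0.11) and MTHFD2 (0.071) lost the latter in a fit on the compared groups alone, SHMT2 also without the second 2-DG library with CGRP (0.057).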

How the results depend on the processing

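Counts of called genes among the 10 are given here by setting. With no low-count filter 3 were called for CGRP in high glucose, 1 for CGRP in deprived medium and 1 for the difference between deprived medium and high glucose. A fit on the compared groups alone called 9 for CGRP in high glucose, 0 in deprived medium, 1 for the difference between deprived medium and high glucose, 2 between 2-DG and high glucose, 3 between 2-DG and deprived medium, and 1 for 2-DG under CGRP. Without both libraries that stood apart 9 were called for CGRP in high glucose, 5 in deprived medium, 7 for 2-DG without CGRP, 6, 5 and 8 for those differences in the same order, and 1 for 2-DG under CGRP. DESeq2 called 5 for CGRP in deprived medium and 2 for the difference between 2-DG and high glucose. The stricter filter, which leaves ASNS untested, called 0 and 1 of these, and total-count scaling called 1 for the latter. Leaving out 1 library gave 2 to 4 for CGRP in high glucose, 0 to 3 in deprived medium, 1 to 4 for 2-DG without CGRP and 1 to 4 for the difference between deprived medium and high glucose. PHGDH with CGRP in deprived medium reversed from 0.06 to -0.094 without both libraries that stood apart. Where no value shows it, the cause was not tested. Of the 1731 alternative values for single genes, 1565 kept their call and direction, 26 changed sign with no call in either fit, 1 called value changed sign, 86 lost and 53 gained a call.

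The replicate block left every count of members as it was, at 5, 3 and 7 for CGRP in high glucose, deprived and 2-DG medium. Same-numbered libraries deviated together at r = -0.19 to 0.64 (median -0.01), and 6 of 18 were closest to their own number, so the numbers were not read as pairs. Over all genes the block gave 781 calls for CGRP in high glucose against 787.

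Total-count scaling shifted the median of all genes by -0.16 (log2) for deprivation and moved the share of calls that were higher from 51.2% to 38.0%. The shares went from 52.8% to 41.5% for deprivation under CGRP, 57.7% to 38.1% for 2-DG, 63.6% to 51.1% for 2-DG under CGRP, 49.2% to 66.2% for CGRP in deprived medium and 43.5% to 57.0% in 2-DG medium, and from 58.2% to 70.5% and 31.0% to 44.4% for the differences of deprived and 2-DG medium from high glucose. Counts over all genes ranged from 353 to 3653 for CGRP in high glucose, against 787, and from 141 to 5307 in deprived medium, against 2354. ASNS rests on 17 to 148 counts in a library.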
